A study of Mus musculus with 11 samples.

Results

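The MHC class II pathway was followed through 8 genes in microglia of aged mice. They were the class II chain genes H2-Aa, H2-Ab1 and H2-Eb1, the invariant chain gene Cd74, the transactivator gene Ciita, the peptide-editing genes H2-DMa and H2-DMb1, and the costimulatory gene Cd86. The 8 genes were taken by symbol from a deposited table of 14739 genes, and all 8 were among the 13223 genes that were abundant enough to be tested. The study asks how the loss of a copy of Csf1r, of Csf2 or of both alters aged microglia, and RNA was sequenced in bulk from Tmem119+ cells sorted from the cerebrum of C57BL/6 mice. There were 3 wild-type libraries (WT), 3 of genotype Csf1r+/- (Csf1r_het), 3 of genotype Csf2+/- (Csf2_het, titled Csf2het) and 2 of genotype Csf1r+/-; Csf2+/- (Dhet). Their labelled age was 21 months for 8 libraries, 20 months for Csf1r_het replicate 1 and 24 months for 2 others, Dhet replicate 2 and Csf1r_het replicate 2. The sources used here do not state how the alleles were made. The labels do not say that each library came from a separate mouse, so the p-values measure the spread between these libraries, which may in part be technical.

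MHC class II molecules are pairs of an alpha and a beta chain that show peptides from the endosome to CD4 T cells. The invariant chain, made from Cd74, fills their groove until endosomal proteases trim it, and the H2-DM pair then exchanges its last fragment for antigen peptides. CIITA is the transactivator that docks onto RFX, CREB and NF-Y complexes at the X and Y boxes of class II promoters, and its own gene is induced by interferon gamma. Homeostatic microglia carry little class II, and the pathway is known to increase in ageing, demyelination and inflammation. GM-CSF, the product of Csf2, is known to raise class II in myeloid cells, and the receptor encoded by Csf1r binds CSF-1 and IL-34.

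The X and Y boxes are shown because they are the feature by which class II promoters are read together. RefSeq promoters (GRCm38.p6, 250 bases before to 50 after each start) matched 4 of the 8 genes, H2-Aa, H2-Eb1, H2-DMa and H2-DMb1. H2-Ab1, Cd74, Ciita and Cd86 had no entry. The letters TNGNAAC were searched for the X box and GATTGG for the Y box, on both strands, and these letters do not overlap each other. The letters were chosen with the members' promoters in view. Among all 32851 promoters, 35.2% held TNGNAAC, 16.1% held GATTGG, and 0.292% held TNGNAAC followed by GATTGG on the same strand with 15 to 35 bases between them. The ordered pair was found in H2-Aa, H2-Eb1 and H2-DMb1 and in H2-Ob, a beta chain of the H2-O inhibitor of H2-DM. It was absent from the windows of H2-Oa and H2-DMb2 and from the windows of H2-DMa, which lie outside the interval that the deposited table gives for that gene. In the 3 windows below, which lie before the RefSeq start, capitals mark the TNGNAAC and GATTGG letters. The H2-Aa window is chr17:34287847-34287926 on the minus strand, the H2-Eb1 window is chr17:34305754-34305832 on the plus strand and the H2-Ob window is chr17:34238796-34238872 on the plus strand.
H2-Aa: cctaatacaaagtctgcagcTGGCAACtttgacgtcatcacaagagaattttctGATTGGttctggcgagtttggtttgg
H2-Eb1: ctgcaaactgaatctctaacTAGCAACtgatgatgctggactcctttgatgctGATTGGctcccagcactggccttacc
H2-Ob: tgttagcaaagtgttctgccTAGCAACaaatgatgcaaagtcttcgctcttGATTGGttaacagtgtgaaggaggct
The letters were 27 bases apart in H2-Aa, 26 in H2-Eb1 and 24 in H2-Ob.

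Between 21037819 and 53081638 reads were assigned to genes per library, and haemoglobin genes took 16.1% to 58.8% of the values. Tmem119, the marker of the sort, was at 5432 to 31939 normalized counts, and none of the 10 homeostatic microglial markers followed was at 0 in any library. Csf1r was at 41261 to 93319 in WT, 17017 to 40567 in Csf1r_het, 53873 to 66762 in Csf2_het and 30254 to 40151 in Dhet, so both groups with 1 Csf1r copy lay under every WT library, and Csf2 was not analysed here. A single library differed from all others in sex-linked transcripts: in Dhet replicate 2 the Y-linked Ddx3y was at 717, where the other 10 libraries reached 16.3, and Xist was at 4.02, where they had 3011 or more. The comparisons of Dhet with WT and with Csf1r_het are given with and without it. For other results on Dhet, counts are given with and without it, or as a range over libraries left out in turn. Values of single libraries below are normalized counts, that is, gene counts divided by a size factor for the library, and are listed in the order of replicates 1 to 3.

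The class II chain genes separated the libraries by Csf2 copy. H2-Aa, H2-Ab1, H2-Eb1 and Cd74 were lower in each of the 5 libraries with 1 Csf2 copy (Csf2_het and Dhet) than in each of the 6 libraries with 2 copies (WT and Csf1r_het). Across all genes tested, 0.809% were lower without overlap in that way. This split was not among the planned comparisons and was made after the values had been seen. For Cd74 it rested on 43327 in Dhet replicate 2 against 44972 in WT replicate 3. H2-Aa and H2-Ab1 passed the test in Csf2_het, H2-DMa and H2-DMb1 overlapped between the libraries with 1 and 2 copies, and Cd86 was higher in both Dhet libraries than in WT. The plot of the 8 genes by library shows the 4 patterns side by side.

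**Figure D1:**
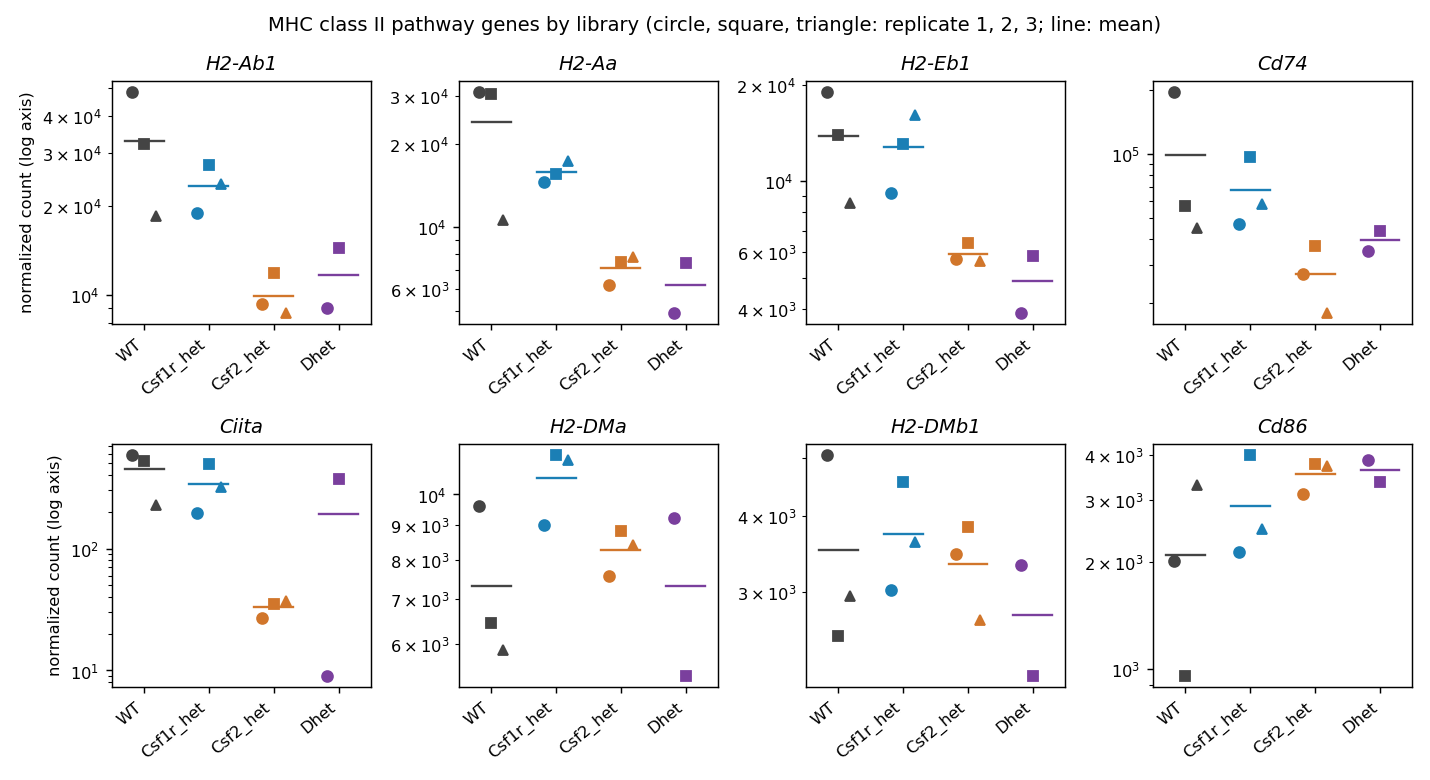
Normalized count of each of the 8 genes (log axis, own scale per panel) in every library of WT, Csf1r_het, Csf2_het and Dhet; symbols give the replicate and horizontal lines the group mean. The Csf2_het and Dhet libraries lie under all WT and Csf1r_het libraries for H2-Ab1, H2-Aa, H2-Eb1 and Cd74, and the Dhet libraries lie 41.6-fold apart for Ciita.

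H2-Ab1 (ENSMUSG00000073421.5, chr17:34263209-34269418, plus strand) encodes the beta chain of I-A. It was at 48307, 32309 and 18378 in WT, at 18832, 27329 and 23642 in Csf1r_het, at 9292, 11819 and 8652 in Csf2_het and at 9039 and 14348 in Dhet. The lowest library with 2 Csf2 copies, WT replicate 3, stood above the highest with 1 copy, Dhet replicate 2. The group means were 32998 ± 14976 in WT (SD, n = 3), 23268 ± 4261 in Csf1r_het (n = 3), 9921 ± 1675 in Csf2_het (n = 3) and 11694 ± 3754 in Dhet (n = 2).

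H2-Aa (ENSMUSG00000036594.14, chr17:34282744-34287827, minus strand) encodes the alpha chain that pairs with it. It was at 30871, 30446 and 10630 in WT, at 14634, 15588 and 17434 in Csf1r_het, at 6169, 7513 and 7779 in Csf2_het and at 4887 and 7458 in Dhet. WT replicate 3 was the lowest WT library for H2-Aa, H2-Ab1 and H2-Eb1, and for H2-Aa it lay under all Csf1r_het libraries. The means were 23982 ± 11565 in WT (SD, n = 3), 15885 ± 1423 in Csf1r_het (n = 3), 7154 ± 863 in Csf2_het (n = 3) and 6172 ± 1818 in Dhet (n = 2).

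H2-Eb1 (ENSMUSG00000060586.10, chr17:34305877-34316199, plus strand) encodes the beta chain of I-E, whose alpha chain C57BL/6 mice are known to lack. It was at 18998, 13942 and 8556 in WT, at 9198, 13107 and 16057 in Csf1r_het, at 5724, 6403 and 5633 in Csf2_het and at 3865 and 5853 in Dhet. Both groups with 1 Csf2 copy were again under the others, and the Csf2_het libraries were the closest together, with a mean of 5920 ± 421 (SD, n = 3) against 13832 ± 5222 in WT (n = 3).

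Cd74 (ENSMUSG00000024610.14, chr18:60803848-60812646, plus strand) is the invariant chain gene, and it lies 293 kb from Csf1r on the same chromosome. It was at 195379, 57100 and 44972 in WT, at 47025, 96957 and 58467 in Csf1r_het, at 27137, 36951 and 17809 in Csf2_het and at 35074 and 43327 in Dhet. WT replicate 1 was far above every other library, and the WT mean of 99150 ± 83557 (SD, n = 3) had a spread almost as large as itself. The groups with 1 and 2 Csf2 copies did not overlap, but Dhet replicate 2 and WT replicate 3 were close.

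Ciita (ENSMUSG00000022504.9, chr16:10488178-10527564, plus strand), the master regulator of the class II genes, was at 588, 526 and 227 in WT and at 197, 492 and 322 in Csf1r_het. It was at 27.1, 35.4 and 36.8 in Csf2_het, where the 3 libraries were close together and under every WT and Csf1r_het library. In Dhet it was at 9.01 in replicate 1 and 375 in replicate 2. Dhet replicate 1 was thus the lowest of all 11 libraries and Dhet replicate 2 lay within the WT range, 41.6-fold higher. The value of Dhet replicate 1 rested on 12 reads (95% exact Poisson interval 6.2 to 21.0 reads, counting error only), that of Dhet replicate 2 on 652 reads and those of Csf2_het on 26, 74 and 27 reads. No other member differed between the 2 Dhet libraries by more than H2-DMa, at 0.583 of replicate 1 in replicate 2, and H2-Aa, H2-Ab1, H2-Eb1 and Cd74 were 1.53-fold, 1.59-fold, 1.51-fold and 1.24-fold higher in replicate 2.

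H2-DMa (ENSMUSG00000037649.9, chr17:34135182-34139101, plus strand), the alpha chain of the peptide editor, was at 9607, 6447 and 5882 in WT and at 9016, 11449 and 11242 in Csf1r_het. It was at 7581, 8815 and 8405 in Csf2_het and at 9229 and 5385 in Dhet. The Csf2_het values lay among those of WT, Dhet replicate 2 lay under every WT library and Dhet replicate 1 within their range, and Csf1r_het had the highest mean, 10569 ± 1349 (SD, n = 3) against 7312 ± 2007 in WT (n = 3). H2-DMb1 (ENSMUSG00000079547.3, chr17:34153072-34160230, plus strand), a beta chain of the same editor, was at 5062, 2533 and 2947 in WT, at 3022, 4568 and 3625 in Csf1r_het, at 3462, 3839 and 2688 in Csf2_het and at 3319 and 2174 in Dhet. All 4 groups overlapped in pairs. H2-DMb1 has a near copy, H2-DMb2, and the division of reads between them is uncertain. The sum of both was 3637 to 6842 in WT and 2944 to 4541 in Csf2_het, and H2-DMb2 made up 23.4% to 30.3% of it in WT, 12.2% to 24.5% in Csf1r_het, 8.7% to 15.5% in Csf2_het and 5.45% and 35% in Dhet replicates 1 and 2, the lowest and the highest share of all libraries.

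Cd86 (ENSMUSG00000022901.13, chr16:36603869-36666081, minus strand) encodes a ligand of CD28 that gives T cells their second signal. It was at 2007, 954 and 3299 in WT, at 2136, 4013 and 2477 in Csf1r_het, at 3107, 3790 and 3721 in Csf2_het and at 3879 and 3372 in Dhet. WT replicate 2 was the lowest library of all, and both Dhet libraries were above every WT library.

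Levels can be compared between genes only per length, and normalized counts per kilobase of merged exon put the WT means in the order Cd74 (59053), H2-Ab1 (12850), H2-Eb1 (7115), H2-Aa (6314), H2-DMa (2121), H2-DMb1 (2090), Cd86 (570) and Ciita (46.9). In WT the neighbours H2-Ab1 and H2-Eb1, H2-Eb1 and H2-Aa, and H2-DMa and H2-DMb1 overlapped in range. Within each library H2-Eb1 was nevertheless under H2-Ab1 per kilobase, with a ratio of 0.52 to 0.615 in WT and at most 0.897 in the others. In Csf2_het Cd74 (10607 to 22007) and H2-Ab1 (3369 to 4602) stayed highest per kilobase, but H2-Aa (1624 to 2048) lay under H2-DMa (2199 to 2557). The ratio of H2-Ab1 to H2-DMa per kilobase was 6.75, 6.73 and 4.2 in WT, 2.8, 3.2 and 2.82 in Csf1r_het and 1.65, 1.8 and 1.38 in Csf2_het. It was 1.32 and 3.58 in the Dhet libraries. The 3 groups with 3 libraries thus did not overlap in this ratio, and the Dhet libraries spanned the Csf2_het values and passed those of Csf1r_het.

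The main comparison, Csf2_het against WT, asks what 1 Csf2 copy does when Csf1r is intact. H2-Ab1 was 3.11-fold lower (log2 fold change -1.64, SE 0.38, limma adjusted p = 0.0337) and H2-Aa 3.03-fold lower (-1.60, SE 0.40, limma adjusted p = 0.044), and each was lower in 3 of 3 Csf2_het libraries than in every WT library. These 2 were the members that passed at 0.05, out of 8, and 3.65% of all genes tested passed in either direction, 2.84% as lower. At an unadjusted p under 0.05 there were 6 members, beside 17.3% of all genes. Fold changes here and below are on the scale of log2(normalized count + 1). Of the others, Ciita was at -3.61 (SE 1.04, limma adjusted p = 0.0802), a 12.2-fold lower level, H2-Eb1 at -1.15 (SE 0.35, limma adjusted p = 0.0913) and Cd74 at -1.60 (SE 0.57, limma adjusted p = 0.153). Cd86 was at 0.93 (SE 0.40, limma adjusted p = 0.253). H2-DMa was at 0.21 (95% interval -0.45 to 0.86) and H2-DMb1 at -0.03 (-0.73 to 0.68), and these intervals do not reach the fold changes of H2-Aa and H2-Ab1. The median over the 8 genes was -1.37, against -0.02 over all genes tested. Without overlap, 5 members (H2-Aa, H2-Ab1, H2-Eb1, Cd74 and Ciita) were lower in Csf2_het than in WT, beside 14.3% of all genes tested.

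The calls were close to the threshold. On the reads recovered from the values, edgeR's quasi-likelihood test gave H2-Ab1 an adjusted p of 0.0388, H2-Aa 0.0443 and Ciita 0.0598, whereas DESeq2, which called 1232 of all genes where limma called 482, called 5 members as lower, with adjusted p of 0.000333 for H2-Ab1, 0.000984 for H2-Aa, 0.000894 for Ciita, 0.0105 for Cd74 and 0.0159 for H2-Eb1. In limma, the H2-Ab1 call was lost without WT replicate 1 (adjusted p = 0.146), Csf1r_het replicate 3 (0.0578) or Csf2_het replicates 1, 2 or 3 (0.133, 0.0788 and 0.125), and the H2-Aa call held only without WT replicate 3 (0.00408) or Csf1r_het replicate 2 (0.0471). Over these 11 fits the log2 fold change ran from -2.01 to -1.31 for H2-Ab1 and from -2.11 to -1.34 for H2-Aa. The Ciita value passed limma without Dhet replicate 1 (adjusted p = 0.00791) or Dhet replicate 2 (0.0113), whose distance from each other enters the shared spread. The numbers that the replicates share do not pair the libraries, and with the replicate block 0 members passed in Csf2_het.

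**Figure D2:**
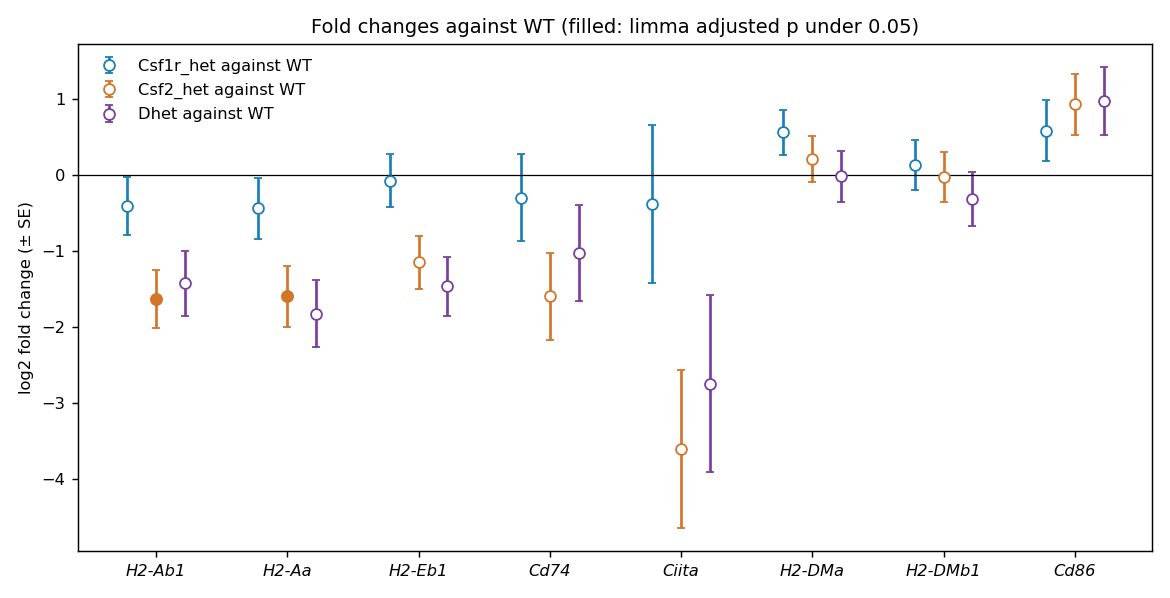
Log2 fold change against WT (vertical axis, points with SE bars) of the 8 genes in Csf1r_het, Csf2_het and Dhet; filled points passed the limma test. H2-Ab1 and H2-Aa in Csf2_het are the filled points, Csf1r_het points lie between -0.44 and 0.58, and Ciita has the longest bars.

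Csf1r_het against WT asks what 1 Csf1r copy does when Csf2 is intact. In limma 0 of the 8 members passed and 0 had an unadjusted p under 0.05, while 1.32% of all genes tested passed and 16.2% had such an unadjusted p. edgeR and DESeq2 also called 0 of the 8. The log2 fold changes were -0.41 (SE 0.38) for H2-Ab1, -0.44 (SE 0.40) for H2-Aa, -0.08 (SE 0.35) for H2-Eb1, -0.30 (SE 0.57) for Cd74 and -0.39 (SE 1.04) for Ciita. The 95% intervals still allowed a fall to -1.24 for H2-Ab1 and -1.30 for H2-Aa on the log2 scale. H2-DMa was at 0.56 (SE 0.30) and Cd86 at 0.58 (SE 0.40). All 8 genes overlapped between Csf1r_het and WT, beside 12.8% of all genes that were lower and 8.61% that were higher without overlap. Centring each library on its median gene, where the median of all genes in this comparison was -0.12, turned H2-Eb1 to 0.05. Direct comparison of the single heterozygotes, Csf2_het against Csf1r_het, passed 0 members in limma, with 5 at an unadjusted p under 0.05, beside 0.0227% and 4.48% of all genes tested. edgeR called 0 of the 8 there and DESeq2 called 1, Ciita (adjusted p = 0.0406), among 61 of all genes. Without overlap, 6 members were lower in Csf2_het than in Csf1r_het (H2-Aa, H2-Ab1, H2-Eb1, Cd74, Ciita and H2-DMa), beside 5.98% of all genes tested.

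In Dhet against WT the chain genes had fold changes of the size seen in Csf2_het with a wider error, since there were 2 libraries. H2-Aa was at -1.83 (SE 0.44, limma adjusted p = 0.124), H2-Eb1 at -1.47 (SE 0.39, limma adjusted p = 0.171) and H2-Ab1 at -1.43 (SE 0.43, limma adjusted p = 0.252). Of the 8 members 0 passed in limma, 4 had an unadjusted p under 0.05, and the shares of all genes tested were 0.529% and 10.1%. edgeR called 0 and DESeq2 called 3 as lower, H2-Aa (adjusted p = 0.0017), H2-Eb1 (0.0103) and H2-Ab1 (0.0205). Without overlap 4 members were lower in Dhet (H2-Aa, H2-Ab1, H2-Eb1 and Cd74), beside 12.6% of all genes, and 1 was higher (Cd86, log2 fold change 0.97, SE 0.45), beside 13.5%. Csf2_het and Dhet share the WT libraries in these comparisons. Ciita in Dhet rested on which library was kept: it was at -2.75 (SE 1.17, limma adjusted p = 0.466) with both, -5.37 (limma adjusted p = 0.0168) without Dhet replicate 2 and -0.14 (0.99) without Dhet replicate 1, where in each fit the lone Dhet library is assumed to vary like the other groups. Without Dhet replicate 2, 1 member passed, Ciita, and without WT replicate 3 it was H2-Aa (-2.34, limma adjusted p = 0.00905). In those fits 174 and 111 of all genes passed, where 70 passed with all libraries. Without Dhet replicate 2, H2-Aa was at -2.14, H2-Ab1 at -1.76, H2-Eb1 at -1.76 and Cd74 at -1.18, and none of these passed (limma adjusted p = 0.123 to 0.664).

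Dhet against Csf1r_het is the same loss of a Csf2 copy on a Csf1r+/- background, and it shares no library with Csf2_het against WT. H2-Eb1 was at -1.39 (SE 0.39, limma adjusted p = 0.393), H2-Aa at -1.39 (SE 0.44, 0.421), H2-Ab1 at -1.01 (SE 0.43, 0.465) and Cd74 at -0.72 (SE 0.63, 0.644), each lower in 2 of 2 Dhet libraries than in all 3 Csf1r_het libraries. Those 4 stand beside 14.4% of all genes tested that were lower without overlap. In limma 0 of the 8 passed, 3 had an unadjusted p under 0.05, and the shares of all genes tested were 0.00756% and 10.5%. edgeR called 0 and DESeq2 called 1 member, H2-Eb1 (adjusted p = 0.0364). DESeq2 called 115 of all genes there, where limma called 1. Ciita was at -2.36 (SE 1.17, limma adjusted p = 0.484) with both Dhet libraries, at 0.25 (0.942) without Dhet replicate 1 and at -4.98 (0.0263) without Dhet replicate 2, where it was the 1 member among 121 genes that passed in limma. In that last fit H2-Aa was at -1.70, H2-Ab1 at -1.35, H2-Eb1 at -1.69 and Cd74 at -0.88, and none of these passed (limma adjusted p = 0.188 to 0.701).

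The interaction, which tests whether the effect of a Csf1r copy differs with 1 or 2 Csf2 copies, passed 0 of the 8 members at either the adjusted or the unadjusted level in limma, beside 1.85% and 18% of all genes, and 0 by edgeR and by DESeq2. The largest of the chain gene terms was 0.62 for H2-Ab1 (95% interval -0.62 to 1.87), and a term of the size of the Csf2_het fold change, with the opposite sign, lay within that interval. Dhet against Csf2_het also passed 0 of 8, with 0 at an unadjusted p under 0.05 and 0 by edgeR and DESeq2, beside 0.0227% and 8.19% of all genes. Without Dhet replicate 2 both counts stayed at 0 of 8, while 247 of all genes passed in the interaction and 85 in Dhet against Csf2_het, where 244 and 3 passed with it. With both Dhet libraries, the fold changes of Dhet against Csf2_het were 0.21 for H2-Ab1, -0.24 for H2-Aa and -0.31 for H2-Eb1.

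The loss of a Csf2 copy averaged over both Csf1r genotypes was computed after the values had been seen, and it uses all 11 libraries. H2-Aa was at -1.49 (SE 0.30, limma adjusted p = 0.04) and H2-Eb1 at -1.27 (SE 0.26, limma adjusted p = 0.0447), and H2-Ab1 at -1.33 (SE 0.29, limma adjusted p = 0.0651). So 2 of 8 members passed, both lower, beside 0.718% of all genes tested, 6 had an unadjusted p under 0.05, beside 10.1%, and the median of the members was -1.22 against 0.03 for all genes. Leaving out 1 library ended both calls for WT replicate 1, all 3 Csf1r_het replicates, all 3 Csf2_het replicates and Dhet replicate 1, with adjusted p up to 0.249 for H2-Aa and 0.283 for H2-Eb1. edgeR called 0 members among 70 of all genes and DESeq2 5 among 360.

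Across the 11 libraries some members varied together. Pearson's r of log2 levels was 0.95 for H2-Aa with H2-Ab1, 0.95 for H2-Aa with H2-Eb1 and 0.94 for H2-Ab1 with H2-Eb1. Cd74 followed H2-Ab1 at 0.91, and Ciita followed it at 0.88. H2-DMa and H2-DMb1 had 0.77 with each other, but H2-DMa had 0.19 with H2-Aa and -0.08 with Ciita. H2-DMb1 had 0.62 with Cd74, 0.45 with H2-Eb1 and 0.06 with Ciita. Cd86 had -0.77 with H2-Aa, -0.52 with Ciita and -0.36 with Cd74. These values describe 11 libraries whose group, depth and cell makeup are shared by all genes, and they carry no test.

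The 3 chain genes lie next to each other at the end of the class II region on chromosome 17. In the order of position the log2 fold changes of Csf2_het against WT were 0.80 for H2-Oa, -0.74 for Brd2, 0.21 for H2-DMa, -1.53 for H2-DMb2 and -0.03 for H2-DMb1. They went on with -1.34 for Psmb9, -1.87 for Tap1, -0.92 for Psmb8 and -1.16 for Tap2, which belong to class I peptide supply, then 0.27 for H2-Ob, -1.64 for H2-Ab1, -1.60 for H2-Aa and -1.15 for H2-Eb1. Only H2-Ab1 and H2-Aa among these 13 passed in limma. H2-Oa, H2-DMa and H2-Ob were above 0 and all others below. In Dhet against Csf1r_het none of the 13 passed, and Tap2 was at 0.91 and Tap1 at -0.18 while the 3 chain genes were at -1.01 to -1.39. H2-DMb2 (-0.88), Psmb8 (-0.76), Psmb9 (-0.52) and H2-DMb1 (-0.46) were below 0 there too.

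**Figure D3:**
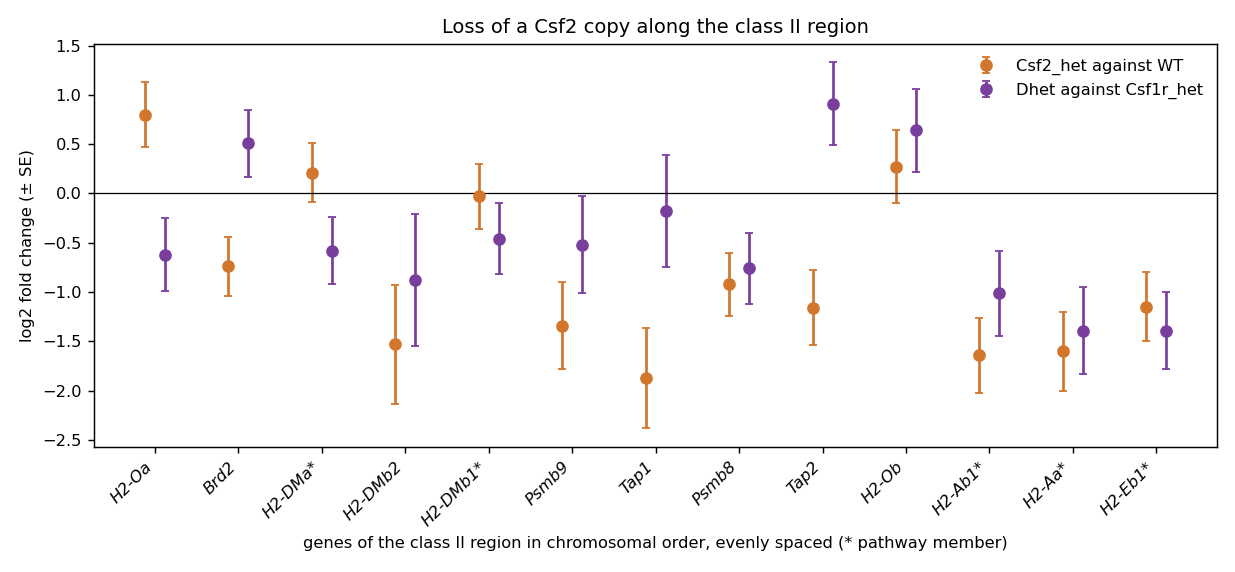
Log2 fold change (vertical axis, points with SE bars) of the 13 genes of the class II region in chromosomal order, evenly spaced, for Csf2_het against WT and for Dhet against Csf1r_het, which share no library; stars mark members. H2-Ab1, H2-Aa and H2-Eb1 at the right end are below 0 in both, as are H2-DMb2, H2-DMb1, Psmb9, Tap1 and Psmb8. H2-Oa, H2-DMa, Brd2 and Tap2 lie on opposite sides of 0, and H2-Ob is above 0 in both.

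The wider pathway was read from lists, each described by its counts. In Csf2_het against WT, 1 of 10 genes of transcription at class II promoters passed, Spi1, which encodes PU.1 and fell from 11101 ± 2612 (SD, n = 3) to 4915 ± 260 (n = 3), a log2 fold change of -1.15 (SE 0.28, limma adjusted p = 0.0391). The median of that list was -0.12. None of the 7 genes from interferon gamma to Ciita passed (median -0.77, 6 of 7 below 0). Jak2, a kinase of the interferon gamma receptor, was at -1.39 (SE 0.37, limma adjusted p = 0.0551). It was at 796 to 948 normalized counts in WT and 292 to 382 in Csf2_het, with no overlap, beside 14.3% of all genes tested that were lower in that way. Jak2 also lay under every WT library in Csf1r_het (322 to 582) and in Dhet (335 and 417).

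None of the 7 genes of antigen and invariant chain processing passed in Csf2_het (median 0.70). Ctsl, which encodes the protease cathepsin L, was at 0.89 (SE 0.35, limma adjusted p = 0.201), and Ifi30, the lysosomal thiol reductase gene, at -1.32 (SE 0.58, limma adjusted p = 0.263). None of the 3 genes of class II and CD86 turnover passed (median 0.34), with March1, whose ubiquitin ligase removes class II and CD86 from the surface, at -0.57 and Cd83, which protects them from it, at 0.79. None of 6 costimulatory genes passed (median -0.07). Pdcd1lg2, a ligand of PD-1, was at 62.1 to 115 in WT and 0 to 6.7 in Csf2_het (limma adjusted p = 0.062), and Cd274, the other PD-1 ligand gene, was at -1.81 (SE 0.71, limma adjusted p = 0.2). Of 3 further class II molecules none passed (median 0.27), with H2-DMb2 at -1.53 (SE 0.60, limma adjusted p = 0.199) and H2-Oa at 0.80 (SE 0.33, limma adjusted p = 0.225), and H2-Eb2 and H2-Ea were not analysed here.

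In Csf1r_het and in Dhet against WT none of the 36 genes in these 6 lists passed. The lowest p among the interferon genes in Csf1r_het belonged to Ifngr1, a chain of the interferon gamma receptor, at -1.22 (SE 0.34, limma adjusted p = 0.104). In the same group March1 was at -1.09 (SE 0.28, limma adjusted p = 0.0763), H2-Oa at 1.10 (SE 0.33, limma adjusted p = 0.126), Spi1 at -0.79 (SE 0.28, limma adjusted p = 0.194) and Ctsl at 0.79 (SE 0.35). In Dhet, Jak2 was at -1.21 (SE 0.41), Ifi30 at -1.78 (SE 0.65) and Cd84, a receptor of the SLAM family, at 0.86 (SE 0.29). Irf4, a transcription factor of B cells and dendritic cells, was at 0 and 17.8 in Dhet against 173 to 575 in WT.

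By the Pearson correlation over the 11 libraries, the genes most like the mean profile of H2-Aa, H2-Ab1, H2-Eb1 and Cd74, among 10925 ranked, were Epsti1 (r = 0.921), Sap30 (0.917), Ecm1 (0.917), Prr13 (0.908), Bri3bp (0.907), Il3ra (0.906), Limd1 (0.906) and Itga4 (0.895). Epsti1, an interferon-stimulated gene, had means of 1267 ± 471 in WT (SD, n = 3), 1143 ± 395 in Csf1r_het (n = 3), 471 ± 102 in Csf2_het (n = 3) and 596 ± 113 in Dhet (n = 2). Il3ra, the alpha chain of the IL-3 receptor, had 199 ± 132, 139 ± 118, 37.2 ± 11.1 and 40.9 ± 18.6 in the same order. Itga4, the alpha-4 integrin of blood leukocytes, had 4113 ± 1277, 1732 ± 448, 706 ± 296 and 627 ± 142. All 8 had lower means in Csf2_het and Dhet than in WT and Csf1r_het. They were chosen by their likeness to the profile over these same libraries, so this order follows from the choice.

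Marker lists of monocytes, B cells, dendritic cells, border macrophages, T and NK cells and homeostatic microglia were read beside the class II genes. All 8 monocyte markers were below 0 in Csf2_het against WT (median log2 fold change -2.86), and 7 passed in limma as lower, beside 2.84% of all genes. Among the 7 were Ccr2, the chemokine receptor of blood monocytes (-3.53, SE 0.45, limma adjusted p = 0.00116), and Ly6c2 (-2.91, SE 0.42, limma adjusted p = 0.00213). The summed level of the 8 markers was 77641 to 240080 in WT, 53065 to 64457 in Csf1r_het, 13495 to 21303 in Csf2_het and 62583 to 72156 in Dhet. The 6 B cell markers in the table were all below 0 in Csf2_het (median -2.28) with 0 passed in limma, and their sum was 3973 to 12572 in WT, 1206 to 12052 in Csf1r_het, 1702 to 2816 in Csf2_het and 2868 and 6549 in Dhet. Blk was at 0 in Csf1r_het replicate 2 and Fcer2a was at 0 in Dhet replicate 1. Of 4 dendritic cell markers 0 passed in Csf2_het (median -1.21), with sums of 2222 to 3771 in WT, 803 to 2604 in Csf1r_het, 1063 to 1944 in Csf2_het and 1901 to 2333 in Dhet, and Cd209a and Ccr7 were at 0 in Csf1r_het replicate 2. Of 4 border macrophage markers 1 passed in limma as lower, F13a1 (4134 ± 2115 in WT and 372 ± 243 in Csf2_het, SD, n = 3 each), which carried the sum. Pf4 and Ms4a7 had higher means in Csf2_het (list median 0.24). The sums were 2037 to 6047 in WT, 1547 to 2141 in Csf1r_het, 745 to 1118 in Csf2_het and 1935 to 3640 in Dhet, and Cbr2 was at 0 in WT replicate 3 and Csf2_het replicate 3. Of 7 T and NK cell markers 0 passed (median -0.56), with sums of 898 to 4896 in WT, 1959 to 4515 in Csf1r_het, 1283 to 2324 in Csf2_het and 2051 to 2230 in Dhet, and Ncr1 was at 0 in all 3 Csf2_het libraries and in Csf1r_het replicate 2. All 10 homeostatic microglial markers were above 0 in Csf2_het (median 1.36), and 3 passed in limma as higher, beside 3.65% of all genes in either direction. Their sum was 103980 to 287219 in WT, 271341 to 321460 in Csf1r_het, 413256 to 558790 in Csf2_het and 360112 to 436216 in Dhet. Zbtb46, Clec9a, Xcr1, Pax5, Cr2, Mrc1, Cd163 and Lyve1 were not analysed here. The part of these cells in the class II result was not tested, and in bulk RNA fewer cells of a type and less RNA per cell cannot be told apart.

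**Figure D4:**
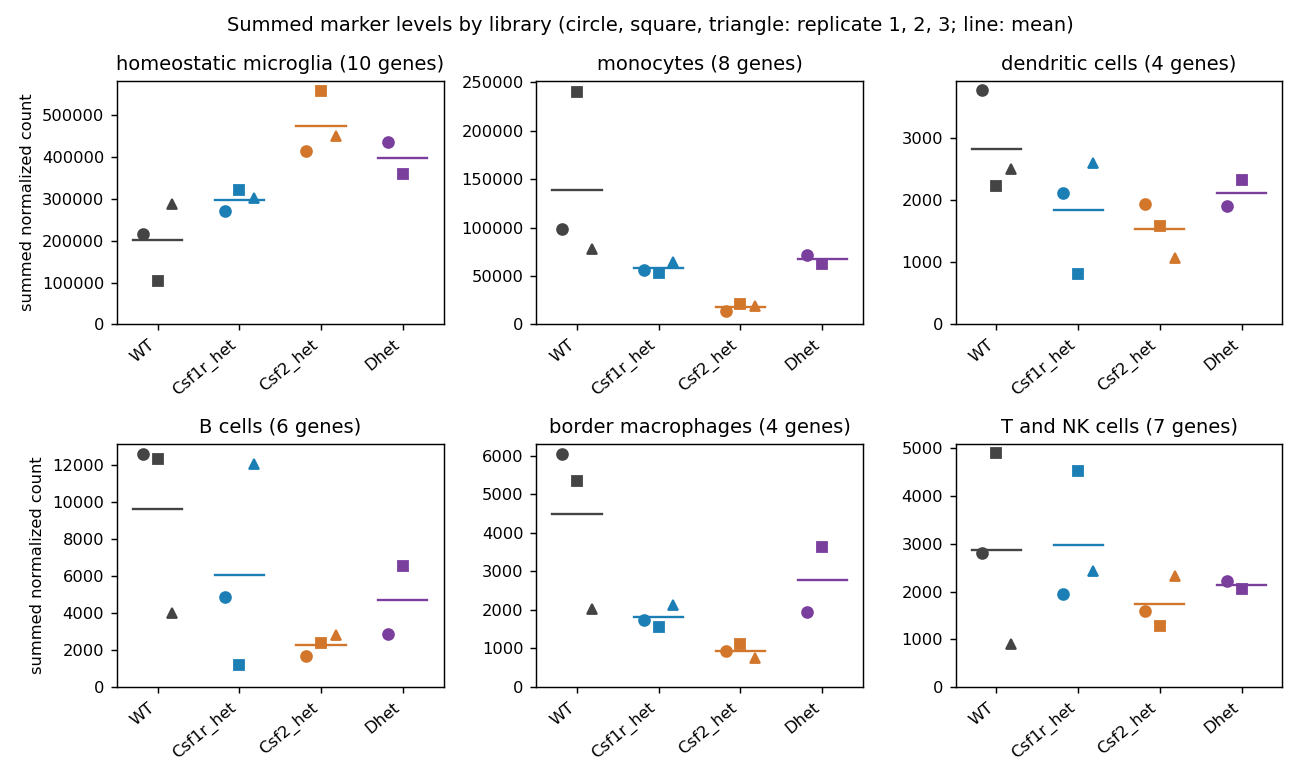
Summed normalized counts (linear axis from 0) of 6 marker lists in every library by group; symbols give the replicate and lines the group mean. Monocyte markers are lowest in Csf2_het, at 13495 to 21303, while Dhet, at 62583 to 72156, overlaps Csf1r_het, at 53065 to 64457, although 6 of the 8 markers are below 0 between them.

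Monocyte markers and class II are given side by side here, and no test was run between them. For the averaged loss of a Csf2 copy, all 8 monocyte markers were below 0, with a median of -1.72 against -1.22 for the members. Of these markers 3 passed in limma as lower, beside 0.718% of all genes tested in either direction. Plac8 and Ms4a4c were lower in each library with 1 Csf2 copy than in each with 2, beside 0.809% of all genes, and the other markers overlapped. Between Csf1r_het and Dhet the monocyte sum overlapped (53065 to 64457 against 62583 and 72156), while H2-Aa, H2-Ab1, H2-Eb1 and Cd74 were lower in both Dhet libraries. Of the 8 monocyte markers, however, 6 were below 0 in Dhet against Csf1r_het (median log2 fold change -0.56, 0 passed in limma), among them Plac8 (-1.17, SE 0.69) and Ms4a4c (-0.83, SE 0.37). The sum was raised by Chil3, at 4595 to 15282 in Csf1r_het and 29517 and 35970 in Dhet. Between Csf2_het and Dhet the monocyte sum was higher in Dhet without overlap, while all 8 members overlapped. Of all genes tested, 12.9% were lower in Dhet without overlap there, a share that stands beside the members and not beside the monocyte sum. The share of genes that were higher there is not given here. The part of monocytes in the class II result was not tested by any of these comparisons. Within WT, replicate 2 had the highest monocyte sum (240080), and replicate 1 had the highest H2-Ab1, Cd74 and Ciita. Replicate 3 was the lowest WT library for the monocyte sum (77641) and for H2-Aa, H2-Ab1, H2-Eb1, Cd74 and Ciita. The B cell sum differed between the Dhet libraries in the direction of Ciita, though not every marker did: Blk was at 254 and 186, Ms4a1 at 289 and 992 and Cd79a at 1283 and 2510 in replicates 1 and 2, where Ciita was at 9.01 and 375.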

How the data were processed

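RNA of 11 libraries was analysed. Each deposited signal value is a normalized count: the authors scaled gene counts by library size factors (kallisto 0.43.1, DESeq2 and mm10, per the submitters' processing notes). Divided by what 1 read was worth, 100% of the values were whole within 0.02 reads, which gave reads and depth. Of 14739 genes, 13223 with a mean of at least 10 were tested, and 1516 were left out. The 4 groups shared a limma fit (trended prior) on log2(normalized count + 1) with 7 residual and 5.9 prior degrees of freedom and Benjamini-Hochberg adjustment over all genes at 0.05. edgeR's quasi-likelihood test and DESeq2 on recovered reads were alternatives. Versions were limma 3.58.1, DESeq2 1.42.0, edgeR 4.0.16 and R 4.3.3. The fit was tested on simulated data. Exon lengths came from GENCODE vM21. The rule named every member, each called gene of a pathway list (or the 2 of lowest p) and the 8 most alike genes. Brd2, Psmb9, Tap1, Psmb8 and Tap2 were named for their position, and Ddx3y, Xist and the B cell markers of the Dhet libraries after their values were seen. The members and lists were chosen with earlier results of these data known. Some genes that the rule took are left out.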

Additional observations from a re-analysis of the deposited data

How the results depend on the processing

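Of the 8 members, 2 passed in Csf2_het against WT, and the count was 5 with DESeq2 and with limma array weights, which called 1232 and 1738 of all genes where limma without weights called 482, 1 with libraries centred on their median, with only the groups of the contrast or with only the libraries of 21 months, and 0 with the replicate block. It ran from 0 to 3 when each library was left out in turn, and was 2 or 3 under all other alternatives. In Dhet against WT the count of 0 became 3 with DESeq2 and 1 with only the libraries of 21 months or without both Csf1r_het replicate 2 and Dhet replicate 2, and ran from 0 to 1 with 1 library left out. In Dhet against Csf1r_het it became 1 with DESeq2 and 1 without those 2 libraries, and ran from 0 to 1. In Csf2_het against Csf1r_het it became 1 with DESeq2. For the averaged loss of a Csf2 copy, 2 members became 5 with DESeq2, 4 with array weights, 3 with libraries centred on their median or with age as a covariate, 1 without those 2 libraries, and 0 with edgeR, with the replicate block or with only the libraries of 21 months, and ran from 0 to 3. For Csf1r_het against WT, Dhet against Csf2_het and the interaction it was 0 under every alternative run. The fit on only the groups of the contrast gives no value for the interaction or the averaged loss. The split of the libraries by Csf2 copy, the averaged loss and all alternatives of that loss were chosen after seeing the data.

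Most signs that turned belonged to values near 0, and Ciita in Dhet against Csf1r_het was the exception. In Csf1r_het against WT, H2-Eb1 became 0.05 when centred and 0.29 at 21 months (-0.38 to 0.19 with 1 library left out), H2-DMb1 became -0.22 with array weights and -0.02 without Csf1r_het replicate 2 and Dhet replicate 2 (-0.07 to 0.43), and Cd74 ran from -0.71 to 0.34. In Csf2_het against WT, H2-DMb1 became 0.05 when centred (-0.23 to 0.27). In Dhet against WT, H2-DMa became 0.01 with DESeq2, 0.05 with age as a covariate, 0.37 at 21 months and 0.37 without those 2 libraries (-0.41 to 0.37). In Dhet against Csf1r_het, H2-DMb1 became 0 without them, and Ciita ran from -4.98 to 0.25 with 1 library left out. For the averaged loss, H2-DMa became 0.04 without them (-0.38 to 0.01). The causes were not tested.

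The replicate numbers do not pair the libraries: same-numbered libraries correlated at -0.21 to 0.06 over 15 pairs, and 0 libraries correlated best with their own number. With the replicate block, 256 genes passed in Csf2_het against WT where 482 passed without it, and 14 in the interaction where 244 passed. Over all genes, DESeq2 called 1232 in Csf2_het against WT, 825 in Csf1r_het and 357 in Dhet, where limma called 482, 174 and 70 and edgeR 458, 100 and 26. Few reads limit Ciita, which rests on 12 to 74 reads in Csf2_het and Dhet replicate 1. Those libraries were not shallow, with 33459297 to 53081638 reads each.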
